A study of Arabidopsis thaliana with 24 samples.

Results

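Seedlings of the Arabidopsis thaliana mutant iaa17-6 were compared after auxin and without it. Members were all arrays labelled iaa17-6, which gave 6 of the 24 arrays of the series: 3 of seedlings given the auxin indole-3-acetic acid (IAA, 5 µM) and 3 of ethanol controls. The response is the difference of the mean log2 values of the 2 groups, IAA minus control, for each probe set of the Affymetrix ATH1 array, including those whose gene is known only by a locus code. All seedlings were 7 days old, had been grown in liquid culture in the light, and received IAA or ethanol for 2 h at 24 °C. The other 18 arrays, 6 per genotype, hold the same pair of treatments of the triple mutant iaa5-1 iaa6-1 iaa19-1 (iaa5 iaa6 iaa19 in short), of axr3-1 and of the wild type Columbia (Col). The labels name Columbia as the ecotype of all 3 mutant lines.

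Aux/IAA proteins are repressors that sit on auxin response factors at auxin-responsive genes. Auxin binds receptors of the TIR1/AFB family, which mark Aux/IAA proteins for degradation, and the genes are then transcribed. IAA17, also called AXR3, is 1 of these repressors. The allele axr3-1 makes a stabilised IAA17 protein, whereas iaa17-6 is known as an insertion allele of the same gene. The labels give only the allele names. No probe set is named here for IAA17, IAA5, IAA6 or IAA19, so the genotype labels were not checked against the mutated genes.

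Each array gives a log2 value for 22746 probe sets other than controls, with a floor at 5.64, the log2 of 50. The iaa17-6 arrays held 44.4% to 45.1% of their values at this floor. Where 1 of the groups compared lies wholly at the floor, the fold is a lower bound and is written as at least that size. The arrays numbered 3 stood apart from the others of their own group, with correlations of 0.959 on both comparisons of the IAA array and of 0.958 and 0.971 on those of the control array, against 0.977 between the other IAA arrays and 0.981 between the other control arrays. On both arrays numbered 3, 165 tested probe sets were at least 2-fold lower than on both other arrays of their group and 1 was at least 2-fold higher. Of these, 0 were called in the response, beside 7.72% of all tested probe sets. The gap within groups that picked them also enters the error of the test. A call was thus less likely there from the outset, and no conclusion is drawn from the 0. The labels do not say what the numbers stand for.

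IAA changed 1096 probe sets in iaa17-6 at an adjusted p under 0.05, which is 7.72% of the 14192 tested. Of these, 626 (4.41%) were higher with IAA and 470 (3.31%) were lower. The rises were larger than the falls: 246 probe sets (1.73%) rose and 106 (0.747%) fell by at least 2-fold, and 56 against 6 did so by at least 4-fold. The median log2 difference was 0.85 among the higher and -0.72 among the lower calls, and 0 over all tested probe sets. The control arrays were all at the floor for 46 of the 246 that rose at least 2-fold, and the IAA arrays for 13 of the 106 that fell at least 2-fold. In 1070 of the 1096 the IAA and control arrays did not overlap; over all tested probe sets, every IAA array lay above every control array in 8.29% and below in 7.91%. Without both arrays numbered 3, the count was 764, of which 451 were higher. Since RNA came from whole seedlings, a change in the number of cells of a type and a change in RNA per cell cannot be told apart.

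**Figure D1:**
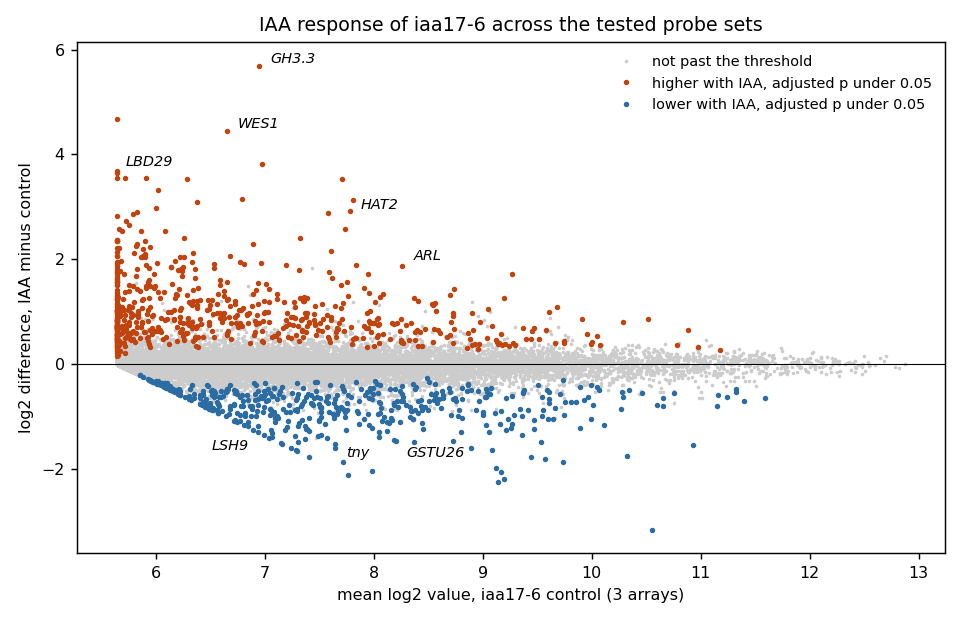
Mean log2 value on the 3 iaa17-6 control arrays (x axis) against the log2 difference, IAA minus control (y axis), for each of the 14192 tested probe sets. Orange points rose and blue points fell at an adjusted p under 0.05, grey points did not pass; the rises reach 5.70, further than the falls, and low control values bound how far a probe set can fall before it meets the floor.

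The largest named rises were those of enzymes that inactivate auxin. GH3 enzymes join IAA to amino acids. For the 23 fixed symbols, some of which name the same gene, 5 genes had a probe set named here and 4 were measured. Here and for all lists below, a symbol without a named probe set was not looked at, which does not mean that its gene was silent. Of these 4, 3 rose and 0 fell, beside 4.41% and 3.31% of all tested probe sets. The 4 had a median log2 difference of 2.93. GH3.3 had 12.71, 12.81 and 12.42 (log2 values) on the IAA arrays, against 7.13, 7.01 and 6.71 on the control arrays. This difference of 5.70 ± 0.25 (SE, n = 3 each), or 51.8-fold, was the largest of all tested probe sets. WES1, the gene of the GH3.5 enzyme, had 11.28, 11.57 and 10.45 with IAA, against 6.51, 7.37 and 6.08 in controls. The lowest IAA array lay far above the highest control array, although both groups spread widely, and the difference was 4.45 ± 0.50 or 21.8-fold (adjusted p = 3.91e-06). GH3.1 had 7.39, 7.93 and 5.85 with IAA, against the floor on all control arrays, a rise of at least 2.66-fold (adjusted p = 0.0307). IAA array 3 stayed close to the floor here, and the call was lost without control array 1, 2 or 3 (adjusted p = 0.0859, 0.0757 and 0.0801) and without IAA array 1 or 2 (0.124 and 0.172). GH3.17 had 8.32, 8.35 and 8.92 with IAA, against 8.06, 8.32 and 8.49 in controls, which overlapped (adjusted p = 0.695). IAGLU encodes a glucosyltransferase that joins IAA to glucose, and had 9.32, 9.42 and 8.81 with IAA, against 7.25, 6.81 and 6.63 in controls, a rise of 4.89-fold (adjusted p = 8.89e-05). It was 1 of 2 measured genes of auxin synthesis and turnover; the other, YUC6, which encodes an enzyme of IAA synthesis, lay at the floor on 5 arrays and had 5.79 on control array 2.

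Of the Aux/IAA repressor genes, 7 of the 29 fixed members had a probe set named here and 3 were measured. All 3 rose, beside 4.41% of all tested probe sets, with a median log2 difference of 1.08. IAA29 had 9.13, 9.12 and 9.35 with IAA, against the floor on all control arrays. That is a rise of at least 11.8-fold, with the IAA arrays within 0.23 of each other. IAA30 had 6.86, 6.13 and 7.19 with IAA, against the floor on the control arrays, a rise of at least 2.12-fold (adjusted p = 0.00017). IAA18 had 8.25, 7.60 and 8.05 with IAA, against 6.88, 7.09 and 7.01 in controls, a rise of 1.96-fold (adjusted p = 0.00145). IAA30 and IAA18 thus spread more between IAA arrays than IAA29 did, with SDs of 0.54 and 0.33, against 0.13 for IAA29. With only the 6 iaa17-6 arrays in the fit, the calls of IAA30 and IAA18 were lost (adjusted p = 0.17 and 0.0928). IAA30 encodes a protein without the degradation motif of most of the family. For IAA20, IAA31, IAA33 and IAA34 no array of the series exceeded the floor.

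Of the auxin-linked transcription factors, 4 of 27 fixed members had a probe set named here, and these were all measured. All 4 rose, beside 4.41% of all tested probe sets, with a median log2 difference of 2.43. LBD29 and LBD16 act downstream of auxin response factors in lateral root initiation. LBD29 had 9.04, 9.09 and 9.83 with IAA, against the floor on all control arrays, a rise of at least 12.8-fold (adjusted p = 3.31e-12). LBD16 had 7.63, 7.66 and 7.52 with IAA, against 5.64, 5.68 and 5.64 in controls, a rise of 3.85-fold (adjusted p = 2.67e-13). The control arrays of both genes therefore lay at or next to the floor. PUCHI, an AP2/ERF factor of lateral root primordia, had 6.33, 6.36 and 6.63 with IAA, against the floor in controls, a rise of at least 1.73-fold (adjusted p = 2.41e-05). HAT2, a homeodomain-leucine zipper factor known for rapid induction by auxin, had 10.74, 10.78 and 10.58 with IAA, against 8.10, 7.78 and 7.46 in controls. Its difference was 2.92 ± 0.13, or 7.56-fold.

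**Figure D2:**
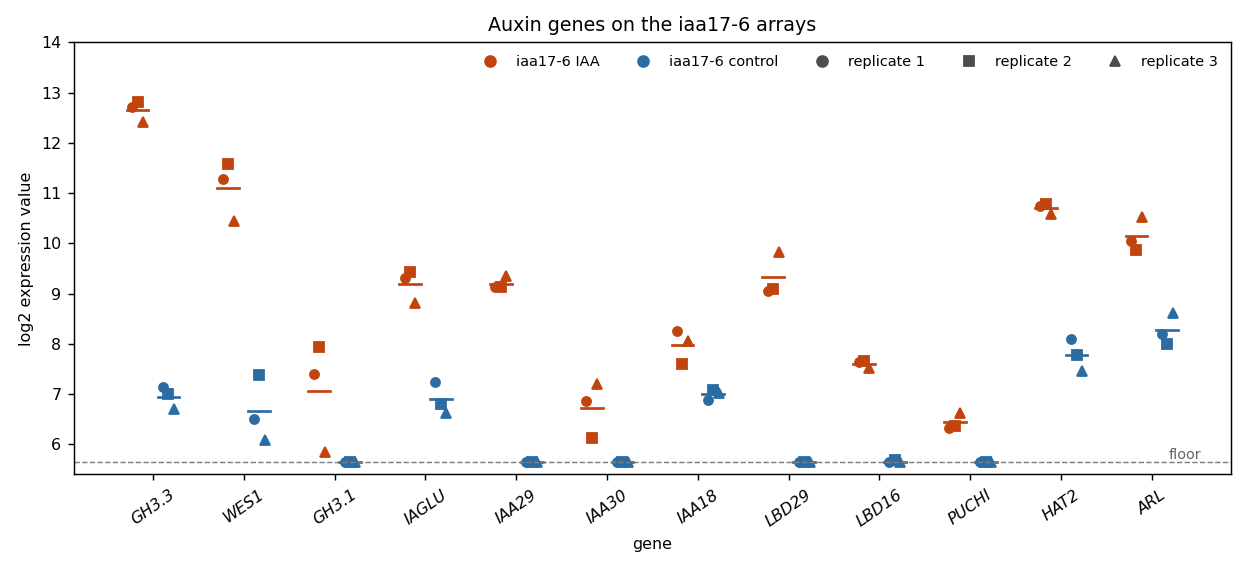
Log2 expression value (y axis) of 12 auxin-linked genes on each iaa17-6 array, IAA arrays in orange to the left of control arrays in blue, with the marker shape giving the replicate number and a short line the group mean. The dashed line is the floor at 5.64; for all 12 genes every IAA array lies above every control array, closest for GH3.1, whose IAA array 3 is at 5.85.

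Few other list members of hormone response and growth had a probe set named here. The numbers were 1 of 25 for auxin transport, 2 of 33 for ethylene, 2 of 32 for cytokinin and 1 of 7 for growth. ARL, a gene of auxin-promoted organ growth, had 10.05, 9.87 and 10.52 with IAA, against 8.19, 7.99 and 8.61 in controls. Within each replicate number the ARL arrays differed by 1.86, 1.88 and 1.90 on the log2 scale, so the array numbered 3 was higher in both groups by like amounts (3.68-fold, adjusted p = 6.65e-06). RTE1, a regulator of the ethylene receptor ETR1, had 8.87, 8.62 and 8.75 with IAA, against 7.67, 7.44 and 7.84 in controls, and rose by 2.14-fold (adjusted p = 2.67e-05). EIN3, a transcription factor of ethylene signalling, did not pass (log2 difference 0.05 ± 0.30). WAG2, which encodes a kinase that acts on auxin efflux carriers and was the 1 measured gene of auxin transport, had 6.34, 6.52 and 5.64 with IAA, against the floor in controls (adjusted p = 0.158). Its IAA array 3 was at the floor, and without both arrays numbered 3 it was called higher. RR16, a cytokinin response regulator, did not pass (adjusted p = 0.136). Of the touch and wound genes, WRKY53, a stress-linked transcription factor, had 6.62, 6.57 and 7.23 with IAA, against 5.64, 5.64 and 5.98 in controls, and rose by 2.07-fold (adjusted p = 0.00971). The WRKY53 call was lost without IAA array 3 (adjusted p = 0.07) and without both arrays numbered 3 (0.0771). STZ, a zinc finger factor of stress responses, had 7.63, 8.16 and 9.22 with IAA, against 6.95, 6.57 and 7.03 in controls, and did not pass (adjusted p = 0.0576). List members without a call, and XTH33 and EXPB1 below, are named after their values were seen.

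Genes of cell wall loosening moved in both directions. Of 65 members, 24 had a probe set named here and 17 were measured. Of these 17, 5 rose and 3 fell, beside 4.41% and 3.31% of all tested probe sets. The median log2 difference was 0.04. Without both arrays numbered 3, 4 rose and 1 fell. XTH enzymes cut and rejoin xyloglucan chains of the wall. XTH18 had 9.25, 9.00 and 9.83 with IAA, against 7.73, 7.78 and 8.23 in controls (2.72-fold, adjusted p = 9.93e-06). XTH19 had 8.92, 9.05 and 9.64 with IAA, against 7.91, 7.62 and 8.51 in controls (2.28-fold, adjusted p = 0.00595). In both genes the arrays numbered 3 were the highest of their group, and the groups did not overlap. XTH33 rose less, by 1.52-fold (adjusted p = 4.77e-05), with 6.41, 6.34 and 6.42 on the IAA arrays, against 5.68, 5.64 and 6.04 on the control arrays. Expansins loosen walls without cutting them. EXPA8 had 8.54, 8.26 and 8.28 with IAA, against 7.28, 6.42 and 7.64 in controls (2.37-fold, adjusted p = 0.0321). EXPA20 had 6.54, 6.61 and 6.40 with IAA, against 6.10, 5.96 and 5.64 in controls (1.54-fold, adjusted p = 0.0485). Both expansin calls were fragile. That of EXPA8 was lost without control array 1 or 2 (adjusted p = 0.0618 and 0.179) and without IAA array 1, 2 or 3 (0.11, 0.0624 and 0.07). That of EXPA20 was lost without control array 2 or 3 (0.088 and 0.204), without IAA array 1, 2 or 3 (0.118, 0.137 and 0.0695), without both arrays numbered 3 (0.247) and with the replicate number as a block (0.0875). EXPA4 had 10.33, 10.58 and 9.34 with IAA, against 9.29, 9.18 and 8.22 in controls, and did not pass (adjusted p = 0.0655). Both of its arrays numbered 3 lay about 1 lower on the log2 scale than the others, the differences within replicate numbers were 1.03, 1.40 and 1.12, and with the replicate number as a block EXPA4 was called higher (adjusted p = 0.0189).

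The members that fell were XTH26, XTH32 and EXPB1. XTH26, an XTH expressed in root hairs, had 6.43, 6.07 and 6.46 with IAA, against 7.23, 6.78 and 7.50 in controls (log2 difference -0.85 ± 0.20, adjusted p = 0.0112). The XTH26 call was lost without control array 3 (adjusted p = 0.0747), without IAA array 2 (0.0631) and without both arrays numbered 3 (0.0972). XTH32 had 7.98, 8.05 and 8.12 with IAA, against 8.90, 8.50 and 8.88 in controls (adjusted p = 0.00784, and 0.0719 without both arrays numbered 3). EXPB1, a beta-expansin, was at the floor on all IAA arrays, against 6.27, 6.12 and 6.08 in controls, lower by at least 1.43-fold. Of the 26 root hair genes, 5 had a probe set named here, and these were all measured. Among these 1, XTH26, fell and 0 rose, beside 3.31% and 4.41% of all tested probe sets. The median log2 difference was -0.39. The expansin EXPA18 and the cellulase GH9C1 were also lower on every IAA array than on every control array, with log2 differences of -0.60 and -0.39, but did not pass (adjusted p = 0.0744 and 0.204). Such a lack of overlap, with IAA lower, held for 7.91% of all tested probe sets. EXPA7, an expansin of root hair initiation, differed by 0.07 (adjusted p = 0.977). SCN1, which restricts the site of hair outgrowth, differed by -0.14, also without overlap (adjusted p = 0.56).

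Of the 94 pectin and cellulose enzymes, 11 had a probe set named here and 7 were measured. Among these 2 rose and 0 fell, beside 4.41% and 3.31% of all tested probe sets, with a median log2 difference of 0.04. GH9B13, an endoglucanase of the cellulase family, had 7.87, 7.99 and 8.38 with IAA, against 6.99, 6.74 and 7.08 in controls, and rose by 2.21-fold (adjusted p = 0.00032). ATPMEPCRB, a pectin methylesterase, had 8.21, 8.09 and 8.76 with IAA, against 7.60, 7.36 and 7.16 in controls, and rose by 1.97-fold (adjusted p = 0.00101). Array 3 was highest among the IAA arrays and lowest among the controls for ATPMEPCRB, so its differences within replicate numbers ran from 0.62 to 1.60.

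Glutathione transferases split. Of 41 members, 12 had a probe set named here and 10 were measured. Of these 10, 2 rose and 3 fell, beside 4.41% and 3.31% of all tested probe sets. The median log2 difference was -0.02. Tau class members conjugate glutathione to reactive compounds. GSTU26 had 6.84, 6.11 and 7.25 with IAA, against 8.15, 7.85 and 8.61 in controls, lower by 2.77-fold (adjusted p = 0.000389). GSTU27 had 8.63, 7.97 and 8.51 with IAA, against 9.14, 9.26 and 9.69 in controls, lower by 1.99-fold (adjusted p = 0.00269). GSTU28 was at the floor on all IAA arrays, against 6.33, 6.56 and 6.69 in controls, lower by at least 1.84-fold (adjusted p = 4.95e-08). GSTU25 moved the other way, with 7.52, 6.94 and 6.91 with IAA, against 6.07, 6.39 and 6.22 in controls (adjusted p = 0.0166). GSTU16 did too, with 7.36, 6.49 and 7.18 with IAA, against 6.13, 6.20 and 6.19 in controls (adjusted p = 0.0102). Neither rise held throughout. The GSTU25 call was lost without control array 1 or 3 (adjusted p = 0.0797 and 0.051), without IAA array 1 (0.104) and without both arrays numbered 3 (0.0569). The GSTU16 call was lost without IAA array 1 or 3 (0.072 and 0.0535) and without both arrays numbered 3 (0.115). The 3 falls kept their calls in these fits; with only the 6 iaa17-6 arrays, those of GSTU26 and GSTU27 were lost (adjusted p = 0.156 and 0.14).

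**Figure D3:**
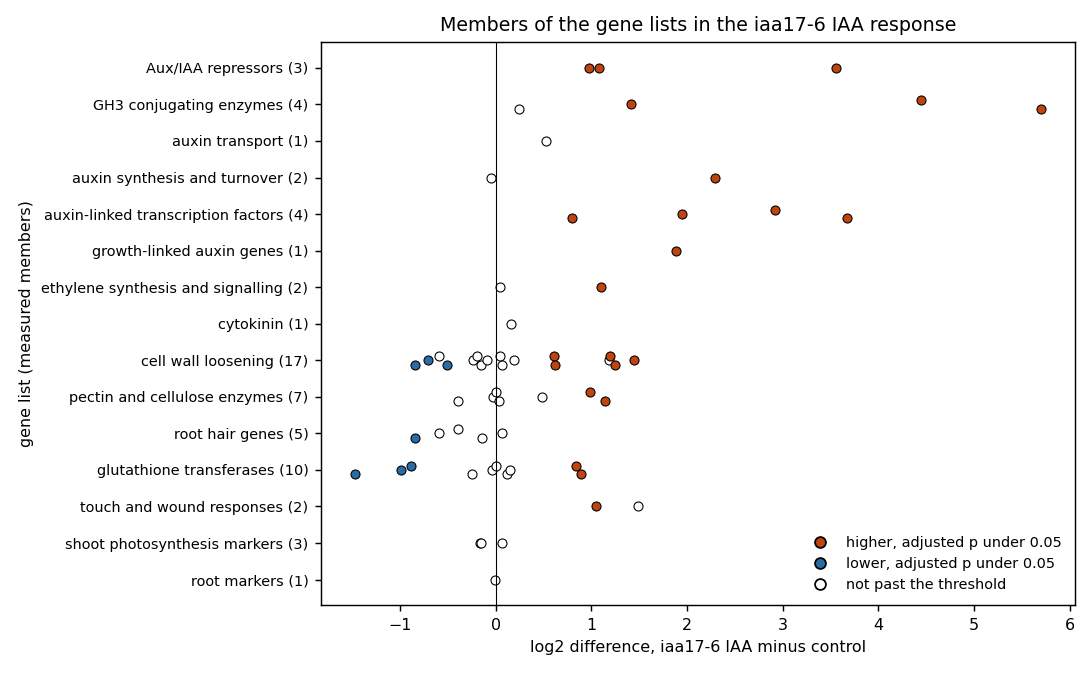
Log2 difference, iaa17-6 IAA minus control (x axis), of each measured member of 15 gene lists (rows, number measured in brackets). Orange points rose and blue points fell at an adjusted p under 0.05, and open points did not pass; the measured Aux/IAA, GH3 and auxin-linked transcription factor genes all lie right of 0, while those of cell wall loosening and the glutathione transferases lie on both sides.

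Of the 7607 tested probe sets with 1 gene named, 6491 had only a locus code and 1116 a symbol. Of the 626 higher probe sets, 59 had 1 gene with a symbol, 246 had 1 gene with a locus code only and 321 had no single gene named here. Of the 470 lower ones the numbers were 44, 176 and 250. Among the 15 largest rises with 1 gene, 10 had only a locus code. AT1G62770 had 9.46, 9.32 and 9.24 with IAA, against 5.95, 5.78 and 6.34 in controls, a rise of 9.98-fold. AT5G62280 had 9.31, 9.42 and 9.69 with IAA, against 6.67, 5.87 and 6.60 in controls (8.54-fold). AT4G17350 had 9.00, 8.91 and 9.07 with IAA, against 6.06, 5.97 and 5.99 in controls (7.91-fold). AT4G17350 had the tightest groups of the 3, with SDs of 0.08 and 0.05, whereas the control arrays of AT5G62280 spread with an SD of 0.44. AT5G57760 had 9.03, 8.70 and 8.26 with IAA, against 5.77, 5.64 and 5.98 in controls (7.28-fold). AT4G37295 had 8.73, 8.11 and 8.54 with IAA, against 5.64, 5.64 and 5.89 in controls (6.66-fold). AT1G64405 had 8.12, 8.07 and 8.51 with IAA, against 5.64, 5.64 and 5.80 in controls (5.81-fold). In these 3 genes 1 or 2 control arrays lay at the floor, so the folds may understate the change. AT3G26760, AT2G39980, AT4G27280 and AT5G40590 rose by 5.81, 5.79, 5.31 and 5.27-fold. For AT3G26760 and AT2G39980, IAA array 3 was the lowest of its group, at 7.87 and 7.83, against 8.57 and 8.93 on the next.

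**Figure D4:**
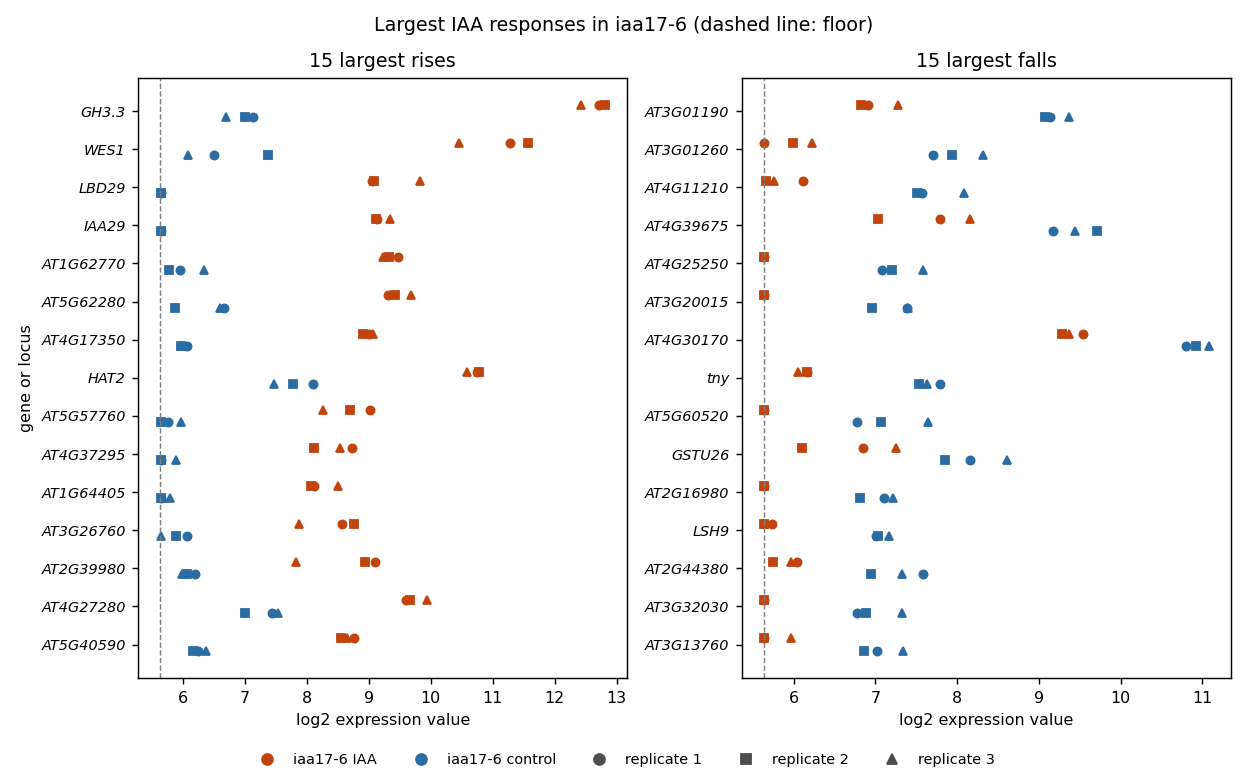
Log2 expression value (x axis) on each iaa17-6 array for the 15 largest rises (left) and the 15 largest falls (right). These were picked by rule among probe sets with 1 gene named. IAA arrays are in orange above control arrays in blue, with the marker shape giving the replicate number. The dashed line is the floor at 5.64; the groups do not overlap in any of the 30, as the rule for naming them requires.

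The largest falls picked by rule were at genes with a locus code only. Most tested probe sets with 1 gene named, 6491 of 7607, have only such a code. AT3G01190 had 6.91, 6.83 and 7.28 with IAA, against 9.14, 9.08 and 9.37 in controls, lower by 4.57-fold (adjusted p = 2.21e-09). AT3G01260 had 5.64, 5.99 and 6.23 with IAA, against 7.70, 7.94 and 8.32 in controls, lower by 4.09-fold (adjusted p = 1.28e-07). AT4G11210 had 6.11, 5.66 and 5.76 with IAA, against 7.57, 7.51 and 8.08 in controls, lower by 3.67-fold. For the last gene of these, control array 3 was the highest and the others were close together. AT4G39675 had 7.79, 7.03 and 8.15 with IAA, against 9.17, 9.71 and 9.44 in controls, lower by 3.44-fold (adjusted p = 0.0131). The AT4G39675 call was lost without control array 2 (adjusted p = 0.0572) or IAA array 2 (0.0768), the pair with the largest difference, -2.68. AT4G30170 had 9.54, 9.28 and 9.37 with IAA, against 10.80, 10.92 and 11.08 in controls, lower by 2.90-fold. AT4G25250, AT3G20015, AT5G60520, AT2G16980 and AT3G32030 had all 3 IAA arrays at the floor, with log2 differences of -1.64, -1.60, -1.52, -1.40 and -1.35, each a bound. AT2G44380 and AT3G13760 fell by 1.36 and 1.32 on the log2 scale, with IAA arrays at or near the floor.

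Of the genes with a symbol among the 15 largest falls, both outside the gene lists encode regulators. The gene listed as tny (TINY), an AP2/ERF transcription factor that limits growth when overexpressed, had 6.16, 6.16 and 6.05 with IAA, against 7.79, 7.53 and 7.63 in controls. It was lower by 2.88-fold (adjusted p = 3.84e-06), with SDs of 0.07 and 0.13. LSH9, of the LIGHT-DEPENDENT SHORT HYPOCOTYLS family, had 5.73, 5.64 and 5.64 with IAA, against 7.01, 7.04 and 7.16 in controls, lower by 2.63-fold (adjusted p = 1.97e-08). Its IAA arrays lay at or next to the floor, so the fold may understate the fall.

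Some of the largest changes were on probe sets with no gene named here. Largest among the rises were 262099_s_at, which had 10.24, 10.87 and 9.84 with IAA, against the floor in controls (at least 25.5-fold), and of 258399_at, which had 10.68, 10.79 and 10.90 with IAA, against 7.02, 6.82 and 7.08 in controls (14.1-fold). The largest fall was that of 254820_s_at, which had 7.03, 7.44 and 7.71 with IAA, against 10.46, 10.53 and 10.68 in controls, lower by 8.96-fold. For 254606_at the IAA arrays had 6.73, 6.75 and 7.17, against 8.95, 9.04 and 9.43 in controls, lower by 4.78-fold. None of these 4 had overlapping groups.

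The measured shoot and root markers did not pass the test, and neither did the measured root hair genes other than XTH26. The call of XTH26 was lost without both arrays numbered 3. The 3 measured shoot photosynthesis markers of 27, LHCB4.1, LHCB4.2 and RCA, averaged 11.85, 12.19 and 11.85 on the IAA arrays, against 12.25, 12.06 and 11.83 on the control arrays, and 0 were called. The 1 measured root marker of 21, PYK10, a beta-glucosidase abundant in roots, had 12.29, 12.42 and 12.69 with IAA, against 12.56, 12.47 and 12.40 in controls. The groups overlapped for the shoot and root markers, which lay far above the floor on every array. The 5 measured root hair genes averaged 7.08, 7.00 and 7.07 on the IAA arrays, against 7.44, 7.32 and 7.54 on the control arrays, without overlap. EXPA7 among them was not lower, with a log2 difference of 0.07. Whether root hair cells changed in number, and whether that bears on the other results, was not tested.

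The response of iaa17-6 was then set beside those of the other genotypes on probe sets that none of the compared responses chose. The triple mutant shares no arrays with iaa17-6, axr3-1 or Col, and 228 probe sets (1.61%) rose and 122 (0.86%) fell by at least 2-fold there. Over the 228, the median log2 difference was 1.47 in iaa17-6, 0.77 in axr3-1 and 1.45 in Col. Of these 228, 219 were called higher in iaa17-6, where 4.41% of all tested probe sets were. Over the 122, the median was -1.14 in iaa17-6, -0.17 in axr3-1 and -1.05 in Col, and 105 were called lower in iaa17-6, where 3.31% of all were. Within the replicate numbers of iaa17-6 the medians ran from 1.49 to 1.54 over the 228 and from -1.22 to -1.09 over the 122. The arrays numbered 3 thus gave responses of the size of the other pairs on these probe sets.

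The test of the difference between the responses of iaa17-6 and Col called 4 of the 14192 probe sets (0.0282%), in 2 of which (0.0141%) the iaa17-6 response was higher and in 2 (0.0141%) lower, and 305 had an unadjusted p under 0.05. With the replicate number as a block, 0 were called and 539 had an unadjusted p under 0.05. The median SE of such a difference was 0.22 on the log2 scale, so differences of well under 1 were often not detectable with these arrays. The difference of largest size was at AT3G32030, where the iaa17-6 response was -1.35, against -0.30 in Col (difference -1.06 ± 0.16, adjusted p = 0.00915). All IAA arrays of both genotypes were at the floor, so the difference is that of the control arrays, 7.00 ± 0.29 in iaa17-6 controls against 5.94 ± 0.19 in Col controls (SD, n = 3 each). Its probe set is of a type that can bind several similar transcripts. AT3G14280 followed the same form, with a response of -0.38 in iaa17-6, against 0.00 in Col, where both groups were at the floor (adjusted p = 0.0263). AT5G01015 also turned on its controls, which averaged 5.69 ± 0.09 in iaa17-6 and 6.31 ± 0.15 in Col, while neither genotype exceeded the floor with IAA (difference of responses 0.61, adjusted p = 0.00201). The remaining call was on an unnamed probe set that averaged 6.41 ± 0.21 with IAA and 5.73 ± 0.11 without it in iaa17-6, against the floor in both Col groups (difference 0.68, adjusted p = 0.00715). Leaving out 1 array gave between 3 and 9 calls; the counts over 1.5 times larger were 8 without iaa17-6 IAA array 1 and 9 without iaa17-6 IAA array 2.

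No auxin gene on the lists passed the test of the difference between iaa17-6 and Col. GH3.3 differed by 5.70 in iaa17-6 and by 5.86 in Col, and the difference of the responses was -0.16 ± 0.35. HAT2 differed by 2.92 and 3.00 (difference -0.08 ± 0.19), and LBD16 by 1.95 and 1.99 (difference -0.05 ± 0.09). LBD29 differed by 3.68 in iaa17-6, which was 0.51 ± 0.21 more than in Col, both measured from controls at the floor. IAA18 differed by 0.97 in iaa17-6 and by 0.51 in Col (difference 0.46 ± 0.26), and was not called in Col (adjusted p = 0.131). IAA30 differed by 1.08 in iaa17-6 and by 0.68 in Col (difference 0.40 ± 0.24), and GH3.1 by 1.41 in iaa17-6 (iaa17-6 minus Col, -0.69 ± 0.56). The adjusted p-values of these 7 differences were 1.0, which does not show that the responses were alike. Of the 30 genes with the largest rises and falls in iaa17-6, 29 had no call in this test; these genes were chosen on the iaa17-6 arrays that enter it.

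The test of the difference against axr3-1 called 241 probe sets (1.70%), with the iaa17-6 response higher in 124 (0.874%) and lower in 117 (0.824%). Without both iaa17-6 arrays numbered 3 the count was 156. Among the differences that passed on a named gene, AT4G17350 had the largest, with a response of 2.98 in iaa17-6 and 0.68 in axr3-1 (difference 2.31 ± 0.18, adjusted p = 2.79e-07). LBD29 responded by 3.68 in iaa17-6 and 2.02 in axr3-1 (difference 1.66 ± 0.21), and LBD16 by 1.95 and 0.84 (difference 1.11 ± 0.09). IAA29 did so by 3.55 and 2.71 (difference 0.85 ± 0.12). The controls of LBD29, LBD16 and IAA29 lay at or next to the floor in both genotypes. IAA30 and PUCHI were at the floor on all axr3-1 arrays, and the differences of 1.08 and 0.79 passed (adjusted p = 0.0186 and 0.0048). GH3.3 and WES1 differed by 1.22 ± 0.35 and 2.64 ± 0.71 and did not pass (adjusted p = 0.109 and 0.0741). HAT2 responded by 2.92 in iaa17-6 and 2.93 in axr3-1, a difference of -0.01 ± 0.19.

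XTH19 went the other way, with a response of 1.19 in iaa17-6 and 2.86 in axr3-1 (difference -1.66 ± 0.38, adjusted p = 0.0235). Its axr3-1 controls averaged 6.50 ± 0.16, against 8.01 ± 0.46 in iaa17-6 controls, while its IAA arrays averaged 9.20 ± 0.39 in iaa17-6 and 9.36 ± 0.23 in axr3-1. Levels without IAA also differed for AT5G40590, which had 6.26 ± 0.10 in iaa17-6 controls and 7.92 ± 0.29 in axr3-1 controls, and responses of 2.40 and 0.60 (difference 1.80 ± 0.26). scpl28, annotated as a serine carboxypeptidase-like gene, rose to 7.25, 7.49 and 7.54 in iaa17-6 with IAA, against 5.64, 5.69 and 5.80 in its controls, and was at the floor on all axr3-1 arrays (difference of responses 1.72 ± 0.24). AT3G51410 and AT3G18560 responded by 2.34 and 1.97 in iaa17-6 and by 0.59 and 0.31 in axr3-1. The axr3-1 controls of both genes, and the iaa17-6 controls of AT3G51410, were at the floor.

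Several genes that fell in iaa17-6 passed this test. AT3G01190 responded by -2.19 in iaa17-6 and -0.04 in axr3-1 (difference -2.15 ± 0.20, adjusted p = 2.59e-06), and AT4G11210 by -1.88 and 0.03. AT3G01260 was at the floor on all axr3-1 arrays, with and without IAA, so no fall could be measured there. The gene tny responded by -1.53 in iaa17-6 and -0.03 in axr3-1 (difference -1.50 ± 0.24), with control means of 7.65 ± 0.13 and 6.56 ± 0.26. GSTU26 responded by -1.47 and 0.07 (difference -1.54 ± 0.35, adjusted p = 0.0235), AT5G60520 by -1.52 and 0.10, and AT1G14960 by -1.17 and 0.27. For AT5G60520 the axr3-1 controls, at 7.31 ± 0.03 (mean ± SD), overlapped the iaa17-6 controls, at 7.16 ± 0.44.

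**Figure D5:**
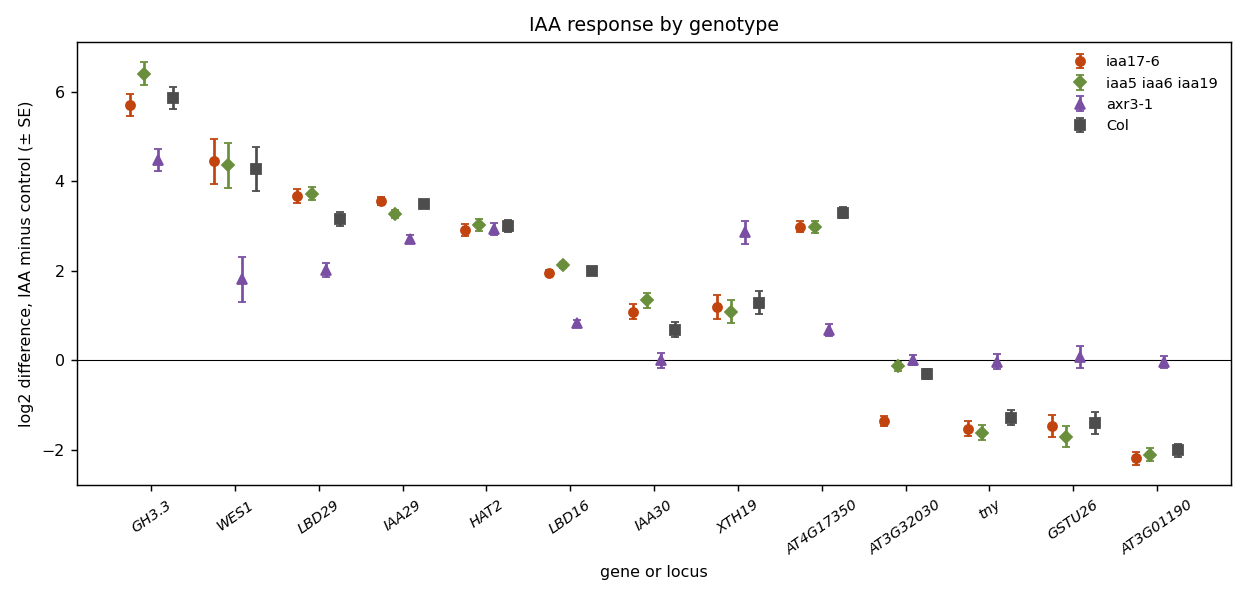
Log2 difference, IAA minus control (y axis, points with SE from the fit, 3 arrays per group), of 13 genes in iaa17-6, iaa5 iaa6 iaa19, axr3-1 and Col. The iaa17-6 point lies below all others at AT3G32030, at -1.35, while axr3-1 lies near 0 for tny, GSTU26 and AT3G01190 and highest for XTH19, at 2.86.

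The responses of iaa17-6 and the triple mutant differed at 10 probe sets (0.0705%), with the iaa17-6 response higher in 8 (0.0564%) and lower in 2 (0.0141%), and 303 had an unadjusted p under 0.05. With the replicate number as a block, 5 were called. Only 4 of the 10 have 1 gene named here. The 2 lower ones were AT3G32030 (-1.35 in iaa17-6, -0.14 in the triple mutant) and AT3G14280 (-0.38 and -0.04). AT5G60760 turned on its controls, which averaged 5.78 ± 0.20 in iaa17-6 and 6.67 ± 0.24 in the triple mutant, with the IAA arrays of both at the floor (difference of responses 0.89, adjusted p = 0.00285). AT2G19460 had 5.83, 6.00 and 6.02 in iaa17-6 with IAA and was at the floor in its controls and on all triple mutant arrays (difference 0.31, adjusted p = 0.0306). The largest differences were on 3 unnamed probe sets. One was at the floor on all triple mutant arrays and averaged 9.29 ± 0.31 in iaa17-6 with IAA, against the floor in its controls (difference 3.64). For 258399_at the response was 3.82 in iaa17-6, against IAA and control means of 7.12 ± 0.20 and 6.28 ± 0.21 in the triple mutant (difference 2.98). The next averaged 7.79 ± 0.32 with IAA in iaa17-6, against the floor in its controls, and differed by 2.12. Col arrays of these 3 probe sets averaged 9.20 ± 0.18, 10.79 ± 0.13 and 7.55 ± 0.19 with IAA, close to those of iaa17-6. The names used here do not say whether any of the 3 belongs to a gene mutated in the triple mutant.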

How the data were processed

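Expression was measured on 24 ATH1 arrays, 3 for each of 8 groups. The deposited table holds log2 values. Their scale and floor were read from the values, and how the authors normalized them is not given in the sources used here. Array medians were 5.942 to 6.064. The labels gave the groups and the replicate numbers. Nothing there says that replicates were separate cultures, so the p-values cover the spread between samples alone, and that spread may be technical.

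Of 22746 probe sets, 64 controls aside, 8554 at the floor on all 24 arrays were left out and 14192 were tested. In the platform annotation 13513 probe sets name 1 gene, 503 name several, and 8730 have no name here, which does not mean that they lack a gene. Gene symbols were matched to RefSeq (TAIR10.1) for 13436.

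The contrasts were fitted together over the 8 group means with limma 3.58.1 in R 4.3.3 (eBayes with trend, 16 residual df, two-sided tests, Benjamini-Hochberg adjusted within each contrast, threshold 0.05). Adjusted p-values are limma's, and errors of differences are its SE. The script was tested on simulated data. Folds are 2 to the power of the log2 difference.

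Genes named were the 15 largest rises and 15 largest falls (called, at least 1 in absolute log2 difference, 1 annotated gene, no overlap between groups), up to 6 called members of each list and up to 8 genes per direction for each difference of responses. A gene was represented in a list by its brightest probe set. Of 18 lists, those of SAUR, gibberellin and brassinosteroid, and cell cycle genes had 0 annotated members. Members and lists were chosen with earlier results of these data known.

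Whether same-numbered IAA and control arrays share deviations from their group means was checked. The correlations were 0.162, 0.56 and 0.698 in iaa17-6, and -0.0748, 0.318 and 0.495 in Col. Those of axr3-1 were -0.0519, -0.15 and 0.0135, and those of iaa5 iaa6 iaa19 were 0.836, 0.582 and 0.633. The numbers may therefore pair the iaa17-6 samples, though unevenly. The main fit did not use them, so its calls and p-values are unpaired. The replicate block, which uses them, was run as an alternative. Alternatives changed the normalization, the filter on low values, the variance model, the arrays in the fit, the replicate block and the arrays left out. With 3 arrays a group, the median SE was 0.152 for a response and 0.215 for a difference of responses, which sets the precision.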

Additional observations from a re-analysis of the deposited data

Results flagged for a closer look

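The response of iaa17-6 differed from those of other genotypes by a test of the difference itself (limma, adjusted p under 0.05) at 4 probe sets against Col, 241 against axr3-1 and 10 against the triple mutant. Differences of log2 responses, iaa17-6 minus the other genotype, are given here for the probe sets picked by rule. Against Col they were -1.06 at AT3G32030, -0.38 at AT3G14280, 0.61 at AT5G01015 and 0.68 at an unnamed probe set; at least 1 of the groups compared was at the floor for each, so these are differences of floored values.

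Against axr3-1 the higher responses were 2.31 at AT4G17350, 1.80 at AT5G40590, 1.75 at AT3G51410, 1.74 at AT1G64405, 1.72 at scpl28, 1.67 at AT3G18560, 1.66 at LBD29 and 1.65 at AT4G37295. The lower ones were -2.15 at AT3G01190, -2.03 at AT3G01260, -1.91 at AT4G11210, -1.66 at XTH19, -1.62 at AT5G60520, -1.54 at GSTU26, -1.50 at tny and -1.44 at AT1G14960. AT3G01260 and scpl28 were at the floor on all axr3-1 arrays, so their axr3-1 response was not measurable and these values are the iaa17-6 response alone. A group compared also lay wholly at the floor for AT3G51410, AT1G64405, AT3G18560, LBD29 and AT5G60520, so theirs are differences of floored values.

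Against the triple mutant the named genes had 0.89 at AT5G60760, 0.31 at AT2G19460, -1.22 at AT3G32030 and -0.33 at AT3G14280. The unnamed probe sets had 3.64, 2.98, 2.12, 0.70, 0.68 and 0.32.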

How the results depend on the processing

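No alternative reversed the direction of the 51 genes named by rule in the response, and 35 kept their call under all alternatives that gave a value. The other 16 (IAA18, IAA30, GH3.1, WRKY53, XTH18, XTH19, XTH26, XTH32, EXPA8, EXPA20, ATPMEPCRB, GSTU16, GSTU25, GSTU26, GSTU27 and AT4G39675) lost it when only the 6 iaa17-6 arrays were fitted (adjusted p = 0.07 to 0.389). The count of 1096 calls in the response was 640 with the lowest 60% by mean left out, 562 when every one of the 24 arrays had to exceed the floor, 363 with only the 6 arrays, 1436 with the replicate block and 855 to 1004 without 1 array; the 2 filters also test fewer probe sets. Against Col, the 4 calls became 0 under both of those filters (limma; 108 and 132 at an unadjusted p under 0.05), 1 with only the arrays compared, 0 with the replicate block (539 unadjusted) and 3 to 9 without 1 array. Against axr3-1, the 241 became 86 and 42 under the filters, 152 with only the arrays compared, 156 without both iaa17-6 arrays numbered 3 (an alternative chosen after seeing the data), 321 with the replicate block and 176 to 236 without 1 array. Against the triple mutant, the 10 became 2 and 1 under the filters, 5 with only the arrays compared, 5 with the replicate block and 7 to 14 without 1 array. Among the measured list members the block ended only the call of EXPA20 and gave one only to EXPA4. The array weights stopped before full convergence. Fits that leave out 1 array assume that the remaining arrays of its group vary like the others.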

Other observations

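Further genes with a symbol changed in iaa17-6 outside the lists, and the groups below were chosen after their values were seen. Some groups counted had few calls, beside 4.41% higher and 3.31% lower over all tested probe sets. Of 30 tested UGT glycosyltransferase genes 2 rose and 3 fell. Of 14 tested TBL genes 0 rose and 1 fell, and of 7 tested tubulin genes 0 rose and 1 fell. Sugar transporters were among the falls. Of 5 tested SWEET genes 2 fell and 0 rose, and of 4 tested SFP and TMT genes, which encode monosaccharide carriers, 3 fell and 0 rose, beside a background of 3.31% lower calls. SFP1 averaged 7.32 ± 0.40 with IAA and 8.36 ± 0.24 in controls (log2 difference -1.04), and SWEET17, a fructose carrier of the vacuole, 7.63 ± 0.17 and 8.44 ± 0.11 (-0.81). TMT1 differed by -0.66, SWEET2 by -0.56 and SFP2 by -0.47. SWEET16 differed by -0.77 and did not pass (adjusted p = 0.0706). The differences of the 5 SWEET genes ran from -0.81 to 0.12.

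Both tested CLE peptide genes were called, in opposite directions, beside 7.72% of all tested probe sets. CLE41 and CLE44 are known to give the same mature peptide, which holds back xylem formation. CLE44 averaged 7.16 ± 0.39 with IAA, against the floor in controls, a rise of at least 2.86-fold, and CLE41 averaged 7.31 ± 0.27 with IAA and 8.06 ± 0.09 in controls, lower by 1.68-fold. PSY1R, the receptor kinase named for the peptide PSY1, averaged 6.08 ± 0.08 with IAA and 6.99 ± 0.10 in controls. CSLC5 and CSLC04, of the family that makes the xyloglucan backbone, rose by 0.95 and 0.68 on the log2 scale, beside a background of 4.41% higher calls, and CSLC6 did not pass (-0.26). IRX15-L, needed for xylan in secondary walls, differed by -0.89.

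AT1G59740 (NPF4.3) had 8.01, 7.95 and 8.06 with IAA, against 6.08, 6.12 and 6.42 in controls, and AT3G21670 (NPF6.4) was at the floor on all IAA arrays, against 6.67, 6.17 and 6.67 in controls. GTR2, a glucosinolate carrier, fell by 0.63 on the log2 scale, and the other tested carrier of this kind, GTR1, did not pass (-0.46). UGT74B1 and BCAT4, enzymes of glucosinolate synthesis, fell by 0.74 and 0.47. Other genes of this synthesis were not counted, so these falls do not stand for it.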
